A study of Sus scrofa with 2 samples.

Results

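The features described here are the long Unigenes of a transcript catalogue of pig ovary. They are the 819 features with an identifier made of Unigene and a number above 12173 and with a length of at least 5000 bases, of 88173 features in all. Membership used the identifier and the length, and no read number. The RNA came from ovaries of 6 crossbred Landrace and Yorkshire gilts, which are young female pigs, collected at 30 or 90 days after birth. All animals were reared together on one free-choice diet, and no treatment besides age separates the groups. The RNA of same-aged animals was pooled in equal amounts into 1 library, so that each age is represented once, the spread between animals cannot be seen and no test between ages is possible. The libraries held 9376506 assigned reads at 30 days and 10706106 at 90 days.

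A Unigene is an assembled transcript sequence, pieced together from overlapping reads and numbered in a catalogue. A long one can be a messenger RNA with long untranslated ends, a long non-coding RNA, or an unspliced precursor, and reads must join over several kilobases for it to exist at all. Long non-coding RNAs, the subject of the study, are transcripts longer than short regulatory RNAs that are not known to encode a protein, and many act on transcription, splicing or RNA stability. In the gilt ovary the growth from birth towards puberty is the time when follicles begin to advance from small, closed layers of granulosa cells to fluid-filled antral follicles. The files pair no Unigene with a gene name, a sequence, a genome position or a coding status, so the long Unigenes are described by length, and the identifier is given only for the 2 with the highest and the 2 with the lowest log2 fold, a measure defined with the comparison of ages. For the same reason the ovarian origin of the RNA could not be checked against marker genes.

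Lengths ran from 5000 to 22779 bases around a median of 6226, and the 819 features made up 0.929% of the features but 5.57% of the bases of the catalogue. Most were near the lower limit. There were 362 under 6000 bases, 192 from 6000 to under 7000, 102 from 7000 to under 8000, 129 from 8000 to under 10000 and 34 of 10000 bases or more. The 4 shortest, of 5000, 5001, 5007 and 5008 bases, had 294, 389, 190 and 935 reads at 30 days and 12, 21, 8 and 919 at 90 days. Just below the limit lay a feature of 4997 bases with 426 and 1806 reads, a pair of 4993 bases and one of 4991 bases with 103 and 35 reads. One of that pair, with 167793 reads at 30 days and 232743 at 90 days, is the most abundant Unigene of the catalogue and is not part of the set. The other had 6 and 22 reads.

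Together the long Unigenes held a smaller share of the reads in the older ovaries. Their reads numbered 345686 in the 30-day pool, which is 3.69% of the library (exact Clopper-Pearson 95% interval 3.67% to 3.70%), and 264385 in the 90-day pool, which is 2.47% (2.46% to 2.48%). The ratio of the summed shares, 90 days over 30 days, was 0.670 (0.666 to 0.673). All intervals cover counting error in these libraries only, since each age has 1 pooled library. No molecular identifiers mark which reads come from separate molecules. Copies of 1 molecule are thus counted as separate reads, and the intervals may be too narrow. Outside the 4 most abundant features of the catalogue, all of them Ensembl transcripts, the share was 8.32% in the younger pool and 8.05% in the older one, with a ratio of 0.968. The fall in their share of the whole library was therefore much smaller on the scale that leaves those 4 features out. In bulk RNA, fewer cells of a type and less RNA per cell cannot be told apart.

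A small part of the set carried much of its signal. The 5 long Unigenes with the most reads took 16.2% of the reads of the set in the 30-day pool and 12.3% in the 90-day pool, and the top 20 took 30.7% and 24.5%. At 30 days 80 long Unigenes had at least 1000 reads, 429 had at least 100 and 181 had fewer than 10. At 90 days these numbers were 67, 347 and 175. The median long Unigene had 128 reads at 30 days and 64 at 90 days. By the median per kilobase they were not more abundant than shorter Unigenes of the same number range, but their upper quartile was higher. Summed, they held 3.69% and 2.47% of the reads at 30 and 90 days on 5.57% of the bases of the catalogue. The shorter ones held 35.5% and 25.2% on 86.7%, so by the sums the long ones held more reads per base than the shorter ones in each pool. The long ones had a median RPKM, reads per kilobase of length scaled to the library total, of 2.08 in the younger and 0.943 in the older pool, against 2.53 and 1.55 in the 84868 shorter ones. The quartiles were wide, from 0.210 to 7.98 at 30 days and from 0.207 to 6.19 at 90 days, against 0.885 to 4.64 and 0.388 to 3.58 in the shorter ones. The quartiles of the long set thus lay farther apart than those of the shorter ones in each pool.

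Within the set, levels per kilobase changed little up to 10000 bases. The median RPKM at 30 days was 1.96 under 6000 bases, 2.22 from 6000 to under 7000, 2.58 from 7000 to under 8000 and 2.19 from 8000 to under 10000. The 34 Unigenes of 10000 bases or more had a median of 4.43 at 30 days and 1.95 at 90 days. The longest Unigene of the set, of 22779 bases, went from 205 reads to 1333, and its share of reads was 5.69-fold higher at 90 days (4.91 to 6.63). The covered part of its length went from 41.7% to 76.5%. The second longest, of 17655 bases, had 3193 and 4319 reads, with 62.3% and 63.0% of its length covered. The fourth, of 15766 bases, had 2828 and 1533 reads and was covered over 98.97% and 97.2% of its length. The third and the fifth, of 16676 and 15671 bases, had 3 reads each at 30 days and none at 90 days. The longest features thus include ones with many reads and ones with 3.

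The most abundant long Unigenes of the younger ovaries were all lower in the older ones. The Unigene of 5967 bases had the most reads at 30 days, 13312 against 2673 at 90 days, which is 238 RPKM against 41.8 and a 5.69-fold higher level at 30 days (5.45 to 5.93). The Unigene of 12863 bases had 11536 and 2192 reads and was 6.01-fold higher at 30 days (5.74 to 6.29). The Unigene of 8332 bases had 11368 and 1611 reads, an 8.06-fold difference (7.65 to 8.49). These 3 were covered over at least 99.1% of their length in both pools, so nearly the whole assembled sequence was read at each age. The Unigene of 10631 bases fell from 10798 to 701 reads, a 17.6-fold difference (16.3 to 19.0), and the part of its length covered fell from 96.1% to 77.6%. The Unigene of 8141 bases fell from 9140 to 687 reads, a 15.2-fold difference (14.1 to 16.4), and stayed covered over 98.4% and 96.4%. The Unigene of 6302 bases, among the top 5 at 30 days by RPKM, had 115 RPKM at 30 days and 8.46 at 90 days. On the scale that leaves out the 4 most abundant features these falls were smaller and all above 2-fold, from 3.94-fold for the Unigene of 5967 bases to 12.2-fold for that of 10631 bases.

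The older ovaries had other long Unigenes at the top. None of the 5 with the most reads at 90 days was among the 5 at 30 days. The Unigene of 8571 bases led with 14585 reads, against 5211 at 30 days, which is 159 RPKM against 64.8. Its share of reads was 2.45-fold higher at 90 days (2.37 to 2.53), and it was the 1 of the 5 that passed 2-fold on the scale of the library total. The Unigene of 7269 bases had 4055 and 6182 reads and a ratio of shares (90 over 30 days) of 1.34, with an interval of 1.28 to 1.39, and for that of 17655 bases the ratio was 1.18 (1.13 to 1.24). For the Unigene of 5312 bases, with 2138 and 3896 reads, it was 1.60 (1.51 to 1.68). In the opposite direction, the Unigene of 6362 bases had 5909 and 3530 reads and a ratio of 0.523 (0.502 to 0.546). The leading features of the 30-day pool thus differed between ages by more than those of the 90-day pool, where each list was picked by its own pool. The scale that leaves out the 4 most abundant features raises every ratio, to 3.54 for the Unigene of 8571 bases, so this contrast is smaller on it.

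**Figure D1:**
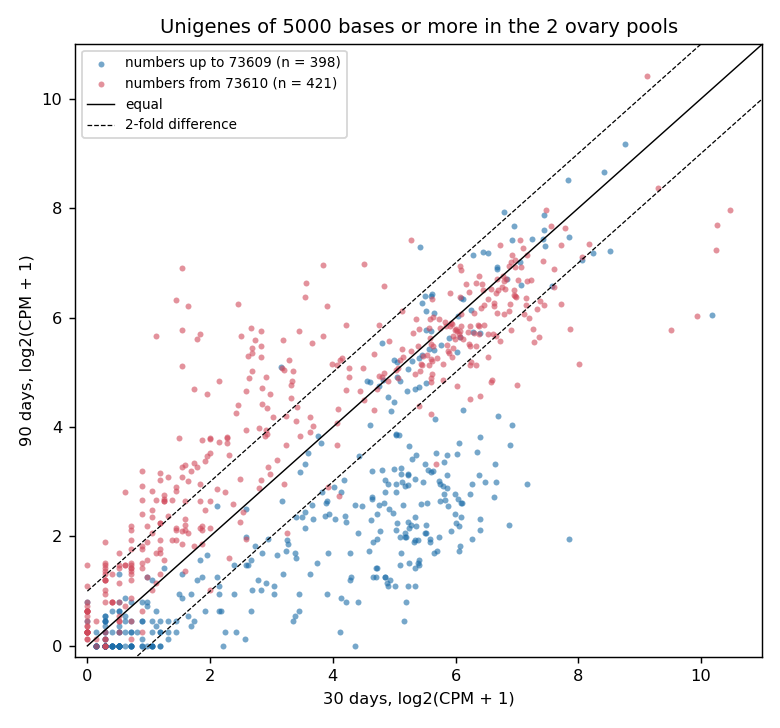
Level of each of the 819 long Unigenes at 30 days (x axis) and 90 days (y axis), both as log2(CPM + 1), where CPM is reads per 1e6 reads of the library. Each point is 1 Unigene in 1 library per age, the solid line marks equal levels and the dashed lines a 2-fold difference. The 398 with numbers up to 73609 (blue) include 209 below the lower dashed line and 3 above the upper one, and the 421 with higher numbers (red) include 35 below and 118 above.

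The comparison of ages used log2((CPM at 90 days + 1)/(CPM at 30 days + 1)), called the log2 fold, and covered the 683 long Unigenes that reached 1 CPM (1 read per 1e6 reads of the library) in either pool. For a sequence of 5000 bases 1 CPM is 0.2 RPKM, so this filter asks less per length of a long feature than of a short one. Of the 683, 591 reached 1 CPM in both pools, 47 at 30 days only and 45 at 90 days only, and the latter 92 entered through the pool in which they were higher. The other 136 long Unigenes were not compared. They had a median of 2 reads in each pool, no more than 10 in either, and at most 10.4% of their length covered.

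By the rule of size, 121 of the 683 passed 2-fold towards 90 days (17.7%, against 14.6% of all features compared) and 244 towards 30 days (35.7%, against 36.6%). The remaining 318 lay between. These shares include features that reached 1 CPM only in the pool where they were higher, which are 92 of the 683 and 37831 of the 73973 features compared. Among features with 1 CPM in each pool, 102 of 591 long Unigenes were higher (17.3%, against 8.62% of all such features) and 209 were lower (35.4%, against 19.5%). For 96 higher and 212 lower ones the exact interval of the ratio did not reach back to 2-fold, against 8.81% and 29.2% of all features. At 4-fold, 36 were higher (5.27%, against 1.49%) and 145 lower (21.2%, against 9.06%). These shares depend on the scale, because a pseudocount of 1 CPM shrinks the folds of features with few reads and a long feature gathers more reads at the same level per length. With deposited RPKM in place of CPM, 57 of 532 long Unigenes were higher (10.7%, against 16.8%) and 180 lower (33.8%, against 38.2%). At 4-fold on that scale 20 were higher (3.76%, against 2.92%) and 91 lower (17.1%, against 13.0%). The median log2 fold was -0.32 in the 683 and -0.49 over all features compared. Where a feature reached 1 CPM in each pool, the median was -0.30 for the long Unigenes and -0.15 for the whole catalogue.

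The direction of the whole set depended on the scaling. Other scalings raised every log2 ratio by 0.19 (median ratio set to 0), 0.39 (TMM factors), 0.41 (median-of-ratios factors), 0.46 (upper quartile) and 0.53 (the 4 most abundant features left out of the total). For the long Unigenes the median log2 fold was then -0.12, 0.057, 0.083, 0.13 and 0.20. Lower ones made up 66.8% of those past 2-fold with the library total, 61.2% with the median set to 0, 55.7% with TMM, 54.6% with median-of-ratios, 53.8% with upper-quartile rescaling and 50.9% without the 4 most abundant features. Past 2-fold under every one of these scalings were 121 higher (17.7%, against 14.6% of all features) and 194 lower long Unigenes (28.4%, against 28.8%). The other scalings raised every ratio, so no higher call of the library total could be lost, and only the lower calls could shrink in number.

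Along the catalogue, the long Unigenes fell into the same 2 blocks of numbers as the shorter ones. The log2 folds of all compared Unigenes break most sharply after number 73609, a boundary found from the folds themselves, so the difference between the blocks is a description. Of the 398 long Unigenes up to that number, 309 were compared, 3 were higher and 209 lower (0.971% and 67.6%, against 1.01% and 63.8% of the shorter Unigenes of that block). Of the 421 with higher numbers, 374 were compared, 118 were higher and 35 lower (31.6% and 9.36%, against 30.7% and 5.12%). The median log2 fold was -1.76 in the first block and 0.38 in the second, against -1.27 and 0.67 in the shorter ones. Of the 39280 shorter ones compared in the first block, 23731 reached 1 CPM at 30 days only. Of the 33390 in the second, 13356 did so at 90 days only. With 1 CPM in each pool, 66.9% of 260 long ones of the first block were lower, against 33.4%. In the second block 29.9% of 331 were higher, against 13.2%. The other way went 1.15% and 10.6%, against 2.47% and 8.34%. The medians were then -1.84 and 0.21, against -0.69 and 0.30. For the long Unigenes the directions of the blocks held under each scaling run. The fewest lower calls in the first block were 179, with upper-quartile rescaling, beside 15 higher ones, and the fewest higher calls in the second were the 118 with the library total. The 118 are the minimum by construction, because the other scalings raised every ratio. Age cannot be told apart from block here without knowing how the numbers were given, which is not stated in the sources used here.

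**Figure D2:**
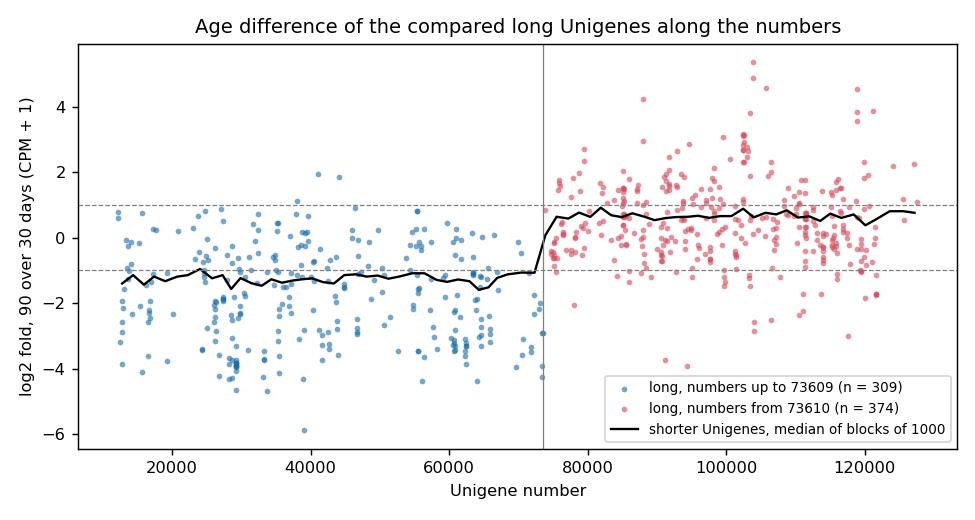
Log2 fold (90 over 30 days, CPM + 1) of the 683 compared long Unigenes against their number, with the median of the shorter Unigenes in blocks of 1000 as a black line. The vertical line marks the boundary after 73609 and the dashed lines a 2-fold difference. The long Unigenes scatter on both sides of the black line, with medians of -1.76 before and 0.38 after the boundary, against -1.27 and 0.67 in the shorter ones. Single points are drawn beside a line of medians, so that they reach farther from 0 is built in.

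The reads of the set did not follow the count of features. In the first block the long Unigenes had 138173 and 82166 reads at the earlier and later age and a ratio of shares of 0.521 (0.516 to 0.525), close to the 0.460 of the shorter ones. In the second block, where more features were higher, the summed share was lower at 90 days, with 207513 and 182219 reads and a ratio of 0.769 (0.764 to 0.774). The shorter Unigenes of that block had a ratio of 1.113 (1.110 to 1.115). Leaving out the 4 most abundant features, the long ones of the second block had a ratio of 1.11, so its direction turned with the scaling. Of the 5 long Unigenes with the most reads at 30 days, 4 are in the second block.

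The gap between the blocks of long Unigenes was widest at middle levels and was of the opposite sign at the highest ones. At low levels the pseudocount of 1 shrinks the folds, and under a mean of 0.5 RPKM no Unigene can pass 2-fold on that scale. The narrowing at low levels is therefore partly built in. By mean CPM of the pools, the median log2 folds of the first and the second block were -0.96 and 0.86 under 2 CPM, -1.52 and 1.49 at 5 to 10 CPM, and -2.56 and 1.20 at 10 to 20 CPM. At 20 to 50 CPM they were -2.58 in 103 and 0.25 in 82 long Unigenes, while the shorter ones had -0.56 and -0.55 and a gap of 0.01. At 50 CPM and over they were -0.01 in 51 and -0.35 in 130. A long feature has more reads than a short one at the same level per length, so the same values were taken by mean RPKM, with folds of RPKM + 1. At 2 to 5 RPKM the medians were then -1.85 in 120 and 1.23 in 56 long Unigenes, with 103 lower in the first block and 33 higher in the second, and -1.47 and 0.77 in the shorter ones. At 5 to 10 RPKM they were -1.29 and -0.16, near the -1.26 and 0.04 of the shorter ones. Matched per length, the gap thus narrowed between these 2 bins in both, from 3.08 to 1.12 in the long and from 2.23 to 1.29 in the shorter ones. At 10 RPKM and over the medians were 0.20 in 33 and -0.38 in 93 long Unigenes, against -0.94 and -0.28 in the shorter ones. There the gap had turned to -0.59 in the long ones and was still 0.66 in the shorter ones.

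**Figure D3:**
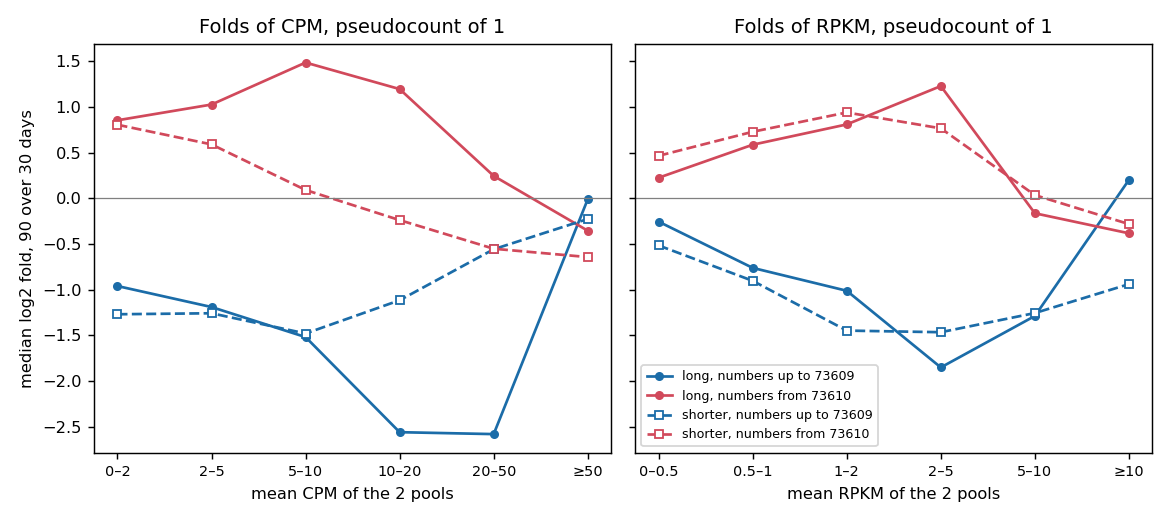
Median log2 fold (90 over 30 days, pseudocount of 1) of long (filled, solid) and shorter Unigenes (open, dashed) in bins of mean CPM (left, folds of CPM) and mean RPKM (right, folds of RPKM), for the blocks up to 73609 (blue) and after it (red). On the CPM axis the long lines part most at 10 to 20 CPM, at -2.56 and 1.20, while the dashed lines are at -1.12 and -0.24 there and meet at 20 to 50 CPM, and on the RPKM axis both pairs of lines part and close over similar levels.

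Among the most abundant long Unigenes, falls outnumbered rises on the scale of the library total. The 181 with a mean of at least 50 CPM took 73.1% of the reads of the set in the younger pool and 74.6% in the older one. Of these, 9 were higher (4.97%, against 8.29% of all features at that level) and 39 lower (21.5%, against 29.5%). TMM factors gave 22 higher and 25 lower, median-of-ratios factors 25 and 25, and the count was 28 and 23 when the 4 most abundant features were left out of the total. Under every scaling 9 were higher, against 8.29% of all features at that level, and 23 lower (12.7%, against 19.8%). The 9 are those of the library total and could not shrink in number, as the other scalings raised every ratio.

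The 23 that fell under every scaling ranged from a 3.33-fold to a 79.2-fold difference with the library total, and 10 of them lie in the first block. With the 4 most abundant features left out of the total, the range was 2.31-fold to 54.8-fold. The folds given for single Unigenes use the library total. Several kept nearly full coverage while they fell. The Unigene of 8372 bases had 1439 and 492 reads (18.3 and 5.49 RPKM) and was covered over 99.9% and 95.8%. The Unigene of 9961 bases had 2182 and 585 reads, a 4.26-fold difference (3.89 to 4.67), with 99.96% and 92.9% covered. Others lost most of their covered length. The Unigene of 10241 bases had 1085 reads over 98.8% of its bases in the younger pool and 39 over 20.9% in the older one, a 31.8-fold difference (23.1 to 44.9). The Unigene of 9624 bases had 1333 and 72 reads, a 21.1-fold difference (16.7 to 27.2).

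The 9 that rose under every scaling ranged from a 2.20-fold to a 61.5-fold difference with the library total, and 7 of them lie in the second block. With the 4 most abundant features left out of the total, the range was 3.17-fold to 88.9-fold. The Unigene of 9002 bases went from 125 to 1318 reads, a 9.23-fold difference (7.68 to 11.2), and its covered length rose from 58.9% to 99.5%. The Unigene of 5445 bases had 102 and 1052 reads, a 9.03-fold difference (7.37 to 11.2). In the first block, where rises were few, the Unigene of 6270 bases had 393 and 1662 reads, a 3.70-fold difference (3.32 to 4.14), and was covered over 96.5% and 99.1%. The Unigene of 5623 bases, also in the first block, had 1032 and 2588 reads, a 2.20-fold difference (2.04 to 2.36). These 2 were well covered in both pools and moved against the direction of their block as a whole. That direction was not seen in the medians of the 51 long Unigenes of the first block with a mean of at least 50 CPM. Their median log2 fold was -0.01 with the library total (2 higher, 12 lower). It was 0.52 when the 4 most abundant features were left out (13 higher, 10 lower).

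The 2 highest log2 folds belong to a pair of consecutive numbers, which also had the highest plain ratios of shares. Unigene103826_All, of 7878 bases, went from 18 reads to 1265, which is 0.244 and 15.0 RPKM and a log2 fold of 5.35. Unigene103827_All, of 5411 bases, had 16 and 844 reads, 0.315 and 14.6 RPKM and a log2 fold of 4.88, and its share was 46.2-fold higher at 90 days (28.3 to 81.2). Their levels per length were thus similar within each pool. At 30 days reads lay on 11.6% and 19.2% of their lengths, and at 90 days on 95.2% and 98.2%. Whether they overlap or share sequence cannot be read from the files, so they may not be separate events.

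The 2 lowest log2 folds were in the first block. The pseudocount bears on this order, since a Unigene of 5086 bases with 153 and 2 reads had a share 87.3-fold higher at 30 days (23.8 to 728) but a log2 fold of -3.87. Unigene39043_All, of 6097 bases, went from 2149 reads to 31, which is 37.6 and 0.475 RPKM and a log2 fold of -5.88. Reads lay on 98.8% of it in the younger pool and on 30.8% in the older one. Unigene33632_All, of 5098 bases, had 324 and 4 reads, 6.78 and 0.0733 RPKM and a log2 fold of -4.69. Its share of reads was 92.5-fold higher at 30 days, with a wide interval of 35.8 to 341 because of the 4 reads at 90 days. Reads lay on at least 96.2% of each in the younger pool, and on 5.81% of the latter in the older one.

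Neighbouring numbers were compared across the set. It holds 42 pairs of consecutive numbers within a block, of which 34 had both members compared. In the first block all 12 such pairs were lower in both members, and the median difference between their log2 folds was 0.33. In the second block 6 of 22 pairs were higher in both, none was lower in both, and the median difference was 0.37. Without the pair named above, 5 of 21 pairs were higher in both, the median difference was 0.36 and Pearson's r was 0.83. In neither block did any pair move in opposite directions past 2-fold. Few calls went against either block (3 higher in the first, 35 lower in the second), so such pairs were rare at any distance. Pairs of neighbouring long Unigenes over 100 numbers apart differed by a median of 1.52 (99 pairs) in the first block and 1.16 (112 pairs) in the second. Of the 99, 35 were lower in both members and 3 moved in opposite directions. Of the 112, 8 were higher in both and 5 moved in opposite directions. Across all pairs, Pearson's r of the log2 folds was 0.85 and 0.91 for consecutive numbers, 0.77 in each block at 2 to 10 apart, 0.41 and 0.32 at 11 to 100 apart, and 0.02 and 0.06 at greater distances. These values describe features of the same 2 libraries, which share depth and scaling. The consecutive pairs did not have like lengths, as the median difference was 2188 bases in the first block and 1814 in the second.

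**Figure D4:**
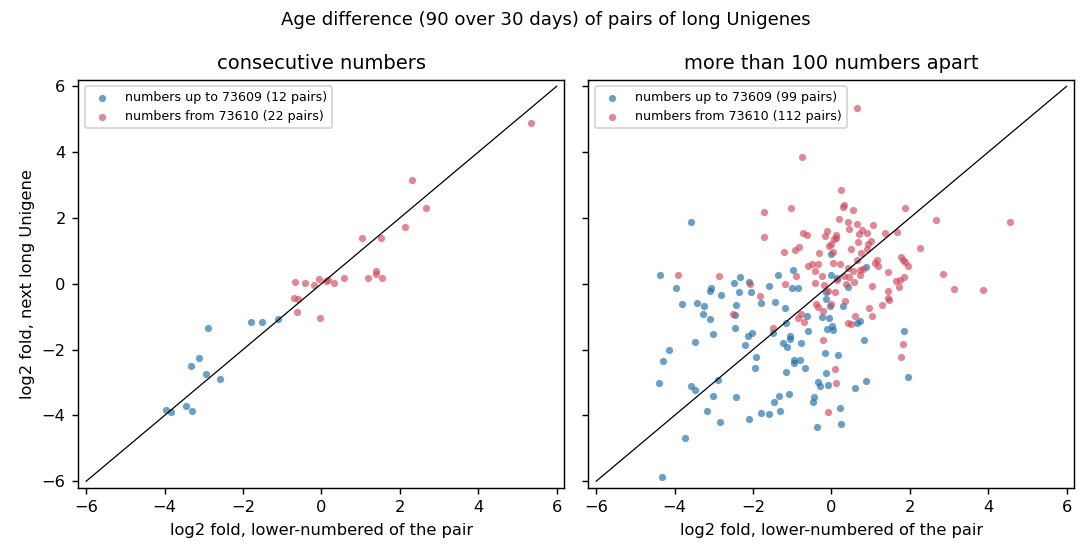
Log2 fold (90 over 30 days) of each compared long Unigene (x axis) against that of the next long Unigene in the same block (y axis), for consecutive numbers (left, 34 pairs) and for numbers more than 100 apart (right, 211 pairs). The line marks equal folds. The left points lie along the line, with r of 0.85 and 0.91, and the right ones scatter, with r of 0.02 and 0.06.

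The covered part of the length, which membership did not use, split the set by age and block. Of the 819, 181 were covered over at least 90% of their length in both pools, 117 at 30 days only, 33 at 90 days only and 488 in neither. The 181 had median levels of 12.8 RPKM at 30 days and 9.87 at 90 days. Of the 117 covered only at 30 days, 113 are in the first block, and their median covered length was 95.8% at 30 days and 36.3% at 90 days. The 33 covered only at 90 days are all in the second block, with 44.5% and 96.6%. Covered length follows read number, so these classes repeat the differences in level in part. The 488 covered in neither pool had a median RPKM of 0.299 at 30 days and 0.337 at 90 days and medians of 10.3% and 10.6% of their length covered.

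At the same read density, a long Unigene was often covered less than a shorter one. At 30 days and 10 to 20 reads per kilobase, the median covered length was 41.4% in 56 long and 60.5% in 13258 shorter Unigenes. At 20 to 50 reads per kilobase it was 81.7% in 104 and 88.3% in 30162. From 50 to 100 reads per kilobase the medians met, at 95.6% and 95.7%. At 90 days the values were 41.7% and 54.7% at 10 to 20 reads per kilobase, 60.6% and 87.3% at 20 to 50, and 94.5% and 95.1% at 50 to 100. The bins are wide, and densities within a bin were not matched further. The blocks differed too. At 90 days and 10 to 20 reads per kilobase, 53 long Unigenes of the first block had a median of 48.7% covered and 36 of the second 28.8%. At 30 days this order was turned, with 26.9% in 27 of the first and 45.7% in 29 of the second.

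**Figure D5:**
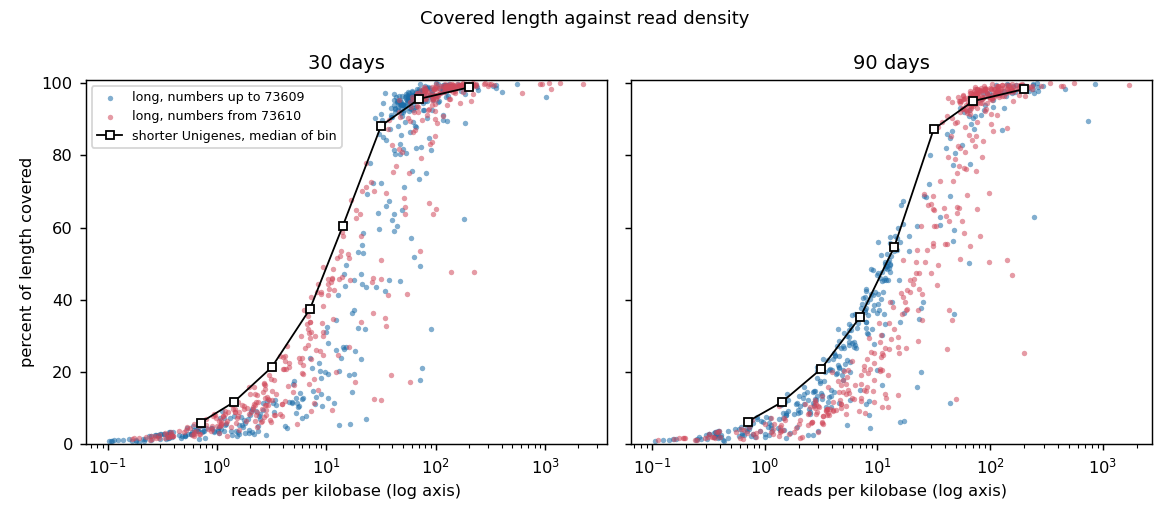
Percent of length covered by reads (y axis) against reads per kilobase (x axis, log scale) for the long Unigenes with at least 1 read at 30 days (left) and 90 days (right), by block. The black line joins the medians of shorter Unigenes in the same bins of density, each drawn inside its bin. Under 50 reads per kilobase the long Unigenes have lower medians than the line, such as 41.4% against 60.5% at 10 to 20 reads per kilobase at 30 days, and a few with many reads stay under 25% covered.

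A few long Unigenes drew many reads onto a small part of their length. At least 20 reads per kilobase with under 25% of the length covered was found for 8 of 409 long Unigenes at 30 days and 4 of 324 at 90 days, limits chosen after the values were seen. The Unigene of 9570 bases had 220 and 165 reads, on 6.89% and 6.53% of its length, which is about 659 and 625 covered bases. The Unigene of 5253 bases had 165 and 263 reads on 12.2% and 12.5%. The Unigene of 9069 bases had 355 and 1813 reads on 19.1% and 25.4%, and its 4.47-fold rise (3.99 to 5.03) therefore concerns no more than 25.4% of the assembled length. The Unigene of 15043 bases fell from 1125 to 165 reads, on 21.1% and 16.3%. In each of these the covered share changed by less than the reads did, and which part of the sequence was covered is not recorded.

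Reads in 1 pool only were found for 91 long Unigenes, nearly all at low counts. For the 64 read only at 30 days the median was 3 reads, and 60 are in the first block. For the 27 read only at 90 days it was 4 reads, and 24 are in the second. Of all 88173 features, 9998 were read only at 30 days and 4929 only at 90 days, beside 64 and 27 of the 819. Both were smaller shares in the long set. The long Unigenes also had more reads, with medians of 128 and 64 against 19 and 14 over all features, which makes a count of 0 less likely. The Unigene of 5361 bases had 184 reads over 97.3% of its length at 30 days and none at 90 days, which makes it at least 70.0-fold lower against a floor of 3 reads, the most that 0 observed reads are taken to allow. That value holds the 184 reads fixed, and the exact interval of the ratio gives a weaker bound of 56.4-fold. At 90 days the largest count was 19 reads, on 1.82% of the 9140 bases of its Unigene, at least 5.55-fold higher against the same floor and at least 4.09-fold by the exact interval. At these depths the absence of most of the others from a pool was not detectable as a difference.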

How the data were processed

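The membership rule and the summaries were chosen with earlier results of these data known. The authors deposited, per the file headers, uniquely assigned read counts, the length in bases, the percent of the length covered and an RPKM value per feature. The deposited counts summed to the header totals, and the deposited RPKM equalled reads per kilobase scaled to that total (relative tolerance 1e-06). Per the submitters' processing notes, TopHat, Cufflinks and build Sscrofa10.2 were used, in roles that are not stated. How the Unigenes were assembled, numbered and counted, and the strand of the library, are not stated.

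A feature listed in 1 table was given 0 reads in the other. CPM used the header totals (1 read is 0.107 CPM at 30 days and 0.0934 at 90 days). With 1 library per age the 2-fold call is a rule of size, and no p-value was computed. Ratios carry exact 95% intervals, from the Clopper-Pearson interval for the part of a feature's reads found at 90 days. Identifiers are given for the 2 largest and the 2 smallest log2 folds, and other Unigenes come from lists of the most reads, highest RPKM and greatest length. Abundant Unigenes past 2-fold under every scaling, neighbouring numbers, coverage classes and narrow coverage were summarised after seeing the data, and their examples were picked by hand. The counts with 1 CPM in each pool and the pairs without the named one were also added then. The block boundary is the split of the log2 folds at which the block means differ most, in units of the standard error. Python 3.11.15, pandas 2.3.3, scipy 1.17.1 and edgeR 4.0.16 (scaling factors) were used, and the calls, intervals and split were tested on simulated data.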

Additional observations from a re-analysis of the deposited data

How the results depend on the processing

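No paired analysis was possible because there is a single library of each age, and for this reason none could be left out. Of the 56 alternatives to the counts, medians and shares, 28 stayed close to the value reported, 23 moved and 5 turned the sign of the median. Against 121 higher long Unigenes, a total that leaves out the 4 most abundant features gave 208, RPKM 57, a 4-fold threshold 36, a length of at least 4000 bases 225 and of at least 7000 bases 45, and the first block alone 3. Against 244 lower ones, the 4-fold threshold gave 145, the lengths 463 and 76 and the second block alone 35. The median log2 fold of -0.32 became -0.12 with the median ratio set to 0, 0.13 with upper-quartile rescaling, 0.057 with TMM, 0.083 with median-of-ratios factors, 0.20 without the 4 most abundant features, -0.43 with a minimum of 5 CPM, -1.76 in the first block alone and 0.38 in the second. Scaling factors shift each ratio by construction, and length limits change the number of features.

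The share of reads at 30 days, 3.69% of the library, was 8.32% of the reads outside the 4 most abundant features and 9.34% of the Unigene reads, 7.01% and 1.90% with the lengths of 4000 and 7000 bases, and 3.09% without the 5 with the most reads. At 90 days, 2.47% became 8.05%, 8.87%, 5.71%, 1.25% and 2.17%. The lower limit of 4000 bases takes in the abundant Unigene of 4993 bases. The 4 named Unigenes kept their direction and stayed past 2-fold under the 8 alternatives run for them. Without a filter the counts are the same by construction, since features below the filter cannot pass 2-fold with this pseudocount.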

Other observations

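The features numbered next to the 4 named Unigenes, most of them short, tended to move the same way. Of the 10 catalogue features within 5 numbers of Unigene39043_All, all 10 were compared and all were at least 2-fold lower at 90 days, with log2 folds from -2.59 to -1.04. Of the 10 around Unigene33632_All, 9 were compared and all 9 were lower. These 9 had no more than 9 reads at 90 days, which is under 1 CPM, and passed the filter at 30 days only. Of the 10 around Unigene103826_All, 8 were compared and 6 were higher, with log2 folds of up to 4.94. A feature of 1106 bases 2 numbers after it had 2 reads at 30 days and 389 at 90 days, and one of 806 bases 4 numbers before it had none and 125. Most of the lower neighbours of Unigene39043_All and of the higher ones of Unigene103826_All also reached 1 CPM in 1 pool only. For neighbours that passed the filter in 1 pool only, the filter fixed the direction in advance, though not the size. In the block up to 73609, 63.8% of the shorter Unigenes were lower, and in the block after it 30.7% were higher.

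The number limit leaves out 447 Unigenes of at least 5000 bases with numbers up to 12173. They had 11188 reads at 30 days and 8076 at 90 days, with medians of 3.43% and 2.85% of their length covered. No Ensembl transcript of the catalogue reaches 5000 bases.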
